A study of Bos grunniens x Bos taurus and Bos grunniens with 6 samples.

Results

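The genes of the molecular chaperones were compared between the testes of cattle-yak and yak. All genes of the table whose symbol belongs to the HSP70, HSP110, HSP90, HSP60, HSP10 and small heat shock protein families, to the DNAJA, DNAJB and DNAJC families, to the heat shock factors (HSF) or to the TRiC chaperonin (TCP1 and the CCT genes) were taken, 90 of 18918 genes, under 81 symbols. The 3 cattle-yak were F1 males from a Jersey cattle sire and a Gannan yak dam, and the 3 yak were Gannan males. All 6 animals were 4 years old, untreated, and gave 1 RNA-seq library of testis tissue each. The cattle-yak were kept in Xiahe County and the yak in Linxia County, and the study's methods name castration for the cattle-yak and euthanasia for the yak, whereas the sample labels name castration for all. County and collection coincide with the groups and cannot be told apart from them. The libraries are called cattle-yak 1 to 3 (TES5, TES6 and TES7) and yak 1 to 3 (Yak8, Yak9 and Yak10), and values per animal are given in that order. Levels are in FPKM, fragments per kilobase of gene model scaled to the depth of the library, so that they can be compared between genes.

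HSP70 proteins bind unfolded stretches of other proteins and release them in a cycle driven by ATP. DNAJ proteins deliver clients to HSP70 and trigger its ATPase, and HSP110 proteins reload it with nucleotide. HSP90 receives late folding intermediates such as kinases and steroid receptors, HSP60 with its lid HSP10 folds proteins in the mitochondrial matrix, TRiC folds actin and tubulin inside a ring of different subunits, and small heat shock proteins hold unfolded proteins without ATP. The heat shock factors are transcription factors, of which HSF1 switches on many of these genes under heat. The testis is known for germ cell versions of several of these proteins, made in spermatocytes and spermatids beside the forms found in most tissues.

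The members were divided by general knowledge of where they are expressed, into a testis list (11 genes found: HSPA1L, HSPA2, HSPA4L, DNAJB3, DNAJB7, DNAJB8, DNAJB13, DNAJC5G, CCT6B, CCT8L2 and HSF5), 12 genes known mainly from other tissues such as muscle or brain, and 67 ubiquitous genes. The lists were chosen with earlier results of these data known, so their counts give no independent support. The genes of the testis list were all lower in cattle-yak, by 1.94 to 6.92 on the log2 scale, whereas the ubiquitous genes moved in both directions. A gene was called where the adjusted p lay below 0.05 and the fold change exceeded 1 in size on the log2(FPKM + 1) scale, among genes with a mean of at least 0.5 FPKM. Of the 90 members 85 passed this filter. Of these, 24 were higher in cattle-yak and 17 lower, where 33.4% of the 15042 genes tested were higher and 20.8% lower (54.2% in either direction), so that the members' counts lay near the background as a whole. The remaining 44 were not called, although 26 of them passed the adjusted p. By the adjusted p alone 38 members were higher and 29 lower, 67 of 85, where 52.6% and 29.2% of all genes were (81.9% in either direction).

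The division between the lists was sharper than the sum. Of the testis list 11 of 11 were lower, with a median log2 fold change of −4.20. CCT8L2 among them averaged 0.036 FPKM in cattle-yak and passed the filter only through the yak libraries, so its call gives no support. Of the 63 ubiquitous genes tested 20 (31.7%) were higher and 6 (9.52%) lower, with a median of 0.40, beside 0.51 over all genes tested. With median-of-ratios factors between libraries this balance turned, as 8 were higher and 17 lower, where 17.7% and 27.7% of all genes were. The median of the ubiquitous genes was then −0.21, beside 0.01 over all genes tested. Of the 11 genes of other tissues tested, 4 were higher (HSPB2, HSPB6, HSPB8 and HSPA12A) and none lower by limma, where 5 of the 11 passed the adjusted p and all 5 were higher. The summed level of the testis list was 210.2 ± 74.2 FPKM in cattle-yak and 2721 ± 203 in yak (mean ± SD of 3 animals, here and below), and that of the ubiquitous genes 10450.3 ± 1162 and 7980.3 ± 136. The testis list therefore made up 1.95% ± 0.59 of the members' FPKM in cattle-yak and 25.3% ± 1.61 in yak, while all members together made up 1.81% ± 0.17 and 1.79% ± 0.01 of the FPKM of all genes. In whole tissue, fewer cells of a type and less RNA per cell cannot be told apart.

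**Figure D1:**
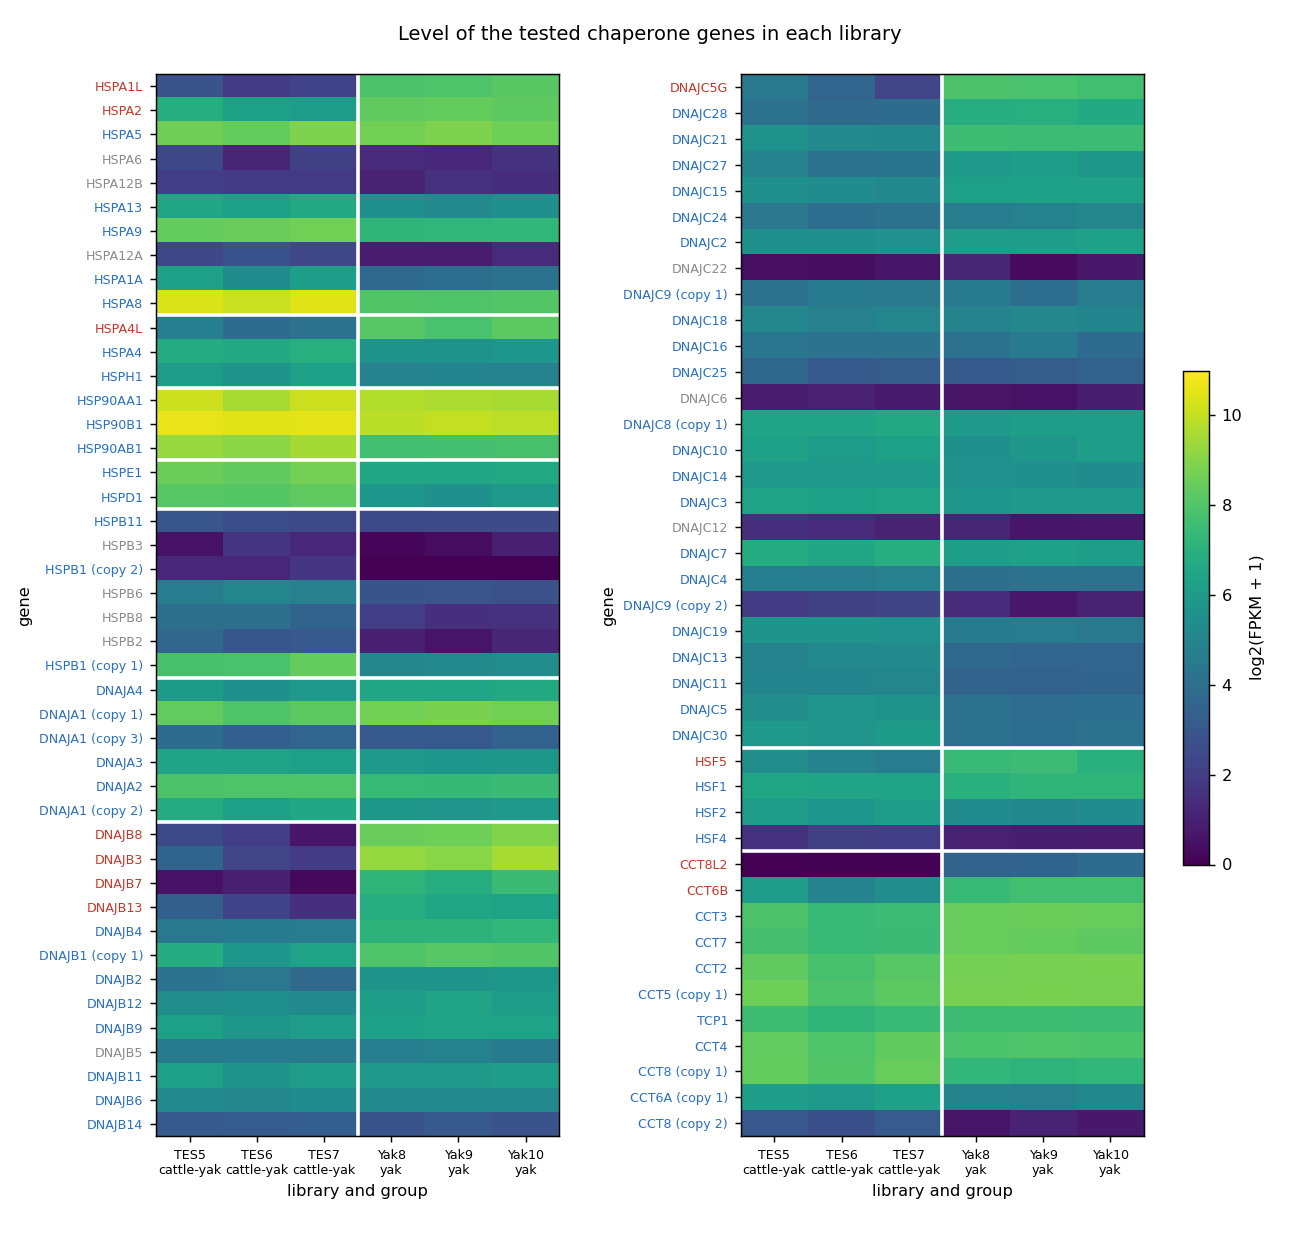
Level of the 85 tested members in each library, as log2(FPKM + 1) by colour, with 1 row per gene, 1 column per library and the groups parted by a white line. Gene names are red for the testis list, blue for ubiquitous genes and grey for genes of other tissues, horizontal lines part the families, and copies are numbered from the most abundant. In each of the 11 red rows the 3 cattle-yak libraries are darker than the 3 yak libraries.

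How many ubiquitous genes were called depended on the scaling between libraries. FPKM left the median of all genes 0.51 higher in cattle-yak, and median-of-ratios size factors brought it to 0.01. With them 12 members were higher and 28 lower, where 17.7% and 27.7% of all genes were, and the median over the members passed from 0.31 to −0.26. With limma voom on fragments recovered from the FPKM values, 25 members were higher and 17 lower, where 39.6% and 22.7% of all genes were. The 12 that remained higher with median-of-ratios factors were HSPA8, HSPA1A, HSPA12A, HSPD1, HSPE1, HSPB2, HSPB6, HSPB8, DNAJC30, both HSPB1 genes and the lesser CCT8 gene. The lesser HSPB1 gene had 0 FPKM in each yak library and passed the filter only through the cattle-yak libraries. All 17 lower members remained lower. The testis list, chosen with earlier results of these data known, was lower in full, 11 of 11, under each of the alternatives.

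The marker genes of the testis cell types were compared in the same way. The 6 round spermatid markers tested were all lower (summed level 13.5 to 59.6 FPKM in cattle-yak, 919 to 1083 in yak, median log2 fold change −5.06), and so were the 8 elongating spermatid markers (59.2 to 186 against 10233 to 12386 FPKM, median −7.54). Only SPACA4 was at 0, in 1 cattle-yak library. Of 9 spermatocyte markers 1 was higher and 1 lower (222 to 402 against 447 to 471 FPKM). All 15 Sertoli cell markers were higher (4188 to 4642 against 825 to 882 FPKM, median 2.24), as were 8 of 8 of Leydig cells (10468 to 12471 against 3352 to 4889 FPKM), 6 of 7 of myoid cells (603 to 804 against 129 to 161 FPKM) and 7 of 9 of spermatogonia (358 to 427 against 98.6 to 112 FPKM). Of 7 endothelial markers 4 were higher and 1 lower, and of 6 macrophage markers 2 were higher and 2 lower. Markers are counted as genes, and CLU, CYP17A1, CREM and OAZ3 stood on more than 1 gene each. INSL3 held most of the Leydig sum, with a mean of 11173.5 of 11616.6 FPKM in cattle-yak and 3842 of 3927 in yak. With median-of-ratios factors the spermatid markers were lower in full and 13 Sertoli, 6 Leydig, 6 myoid and 6 spermatogonial markers were higher, whereas no endothelial, macrophage or spermatocyte marker was higher and 1, 2 and 4 of them were lower. Of the 24 members called higher, 4 exceeded the median rise of the Sertoli markers. The part of these cell types in the members' differences was not tested.

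Among the HSP70 genes of the testis list, HSPA1L, a close relative of the inducible HSP70 that is made in spermatids, had 5.97, 2.83 and 3.58 FPKM in cattle-yak and 246, 253 and 292 in yak. The groups were far apart, with a mean 63.8-fold higher in yak (log2 fold change −5.73 ± 0.21 SE, adjusted p = 2.01e-07). HSPA2, the HSP70 of meiotic and later germ cells, had 113, 75.3 and 66.4 FPKM in cattle-yak and 316, 335 and 310.1 in yak. It kept a larger part of its yak level than the other 10 genes of the list, with a mean 3.77-fold higher in yak (−1.94 ± 0.18, adjusted p = 1.89e-05). HSPA4L, an HSP110 of the germ line, had 26.2, 13.3 and 16.9 FPKM in cattle-yak and 284, 231 and 303 in yak, 14.5-fold higher in yak by the means (−3.83 ± 0.22, adjusted p = 1.55e-06).

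Most broadly expressed members of the same families were higher in cattle-yak. HSPA8, the constitutive HSP70 of the cytosol, had 1328, 1071 and 1463 FPKM in cattle-yak and 254, 247 and 266 in yak. Every cattle-yak library stood above every yak library, with a mean 5.04-fold higher (log2 fold change 2.32 ± 0.13, adjusted p = 1.12e-06). HSPA1A, the HSP70 induced by heat, had 76.4, 38.5 and 70.04 FPKM in cattle-yak and 12.6, 14.7 and 16.4 in yak (1.96 ± 0.25, adjusted p = 1.06e-04). Its lowest cattle-yak value was still above the highest yak value. HSPA9, the HSP70 of mitochondria, had a mean of 365 ± 31.3 FPKM against 149.6 ± 3.45 (1.28 ± 0.09). HSPA5, the HSP70 of the endoplasmic reticulum, overlapped between the groups, with 394, 339.8 and 463 FPKM in cattle-yak and 402, 463 and 377 in yak. Its log2 fold change was −0.06 ± 0.14 (adjusted p = 0.700), and it turned to 0.08 after quantile normalisation.

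Smaller rises were seen in HSPA4 (1.09), HSPH1 (1.13) and HSPA13 (1.04), of which HSPA4 and HSPH1 are HSP110 proteins of the cytosol. These 3 and HSPA9 were no longer called with median-of-ratios factors (0.43 to 0.66), and HSPA13 fell below the fold threshold without cattle-yak 3 (0.95) or without yak 2 (0.94). HSPA12A, a distant HSP70 relative, was low in both groups (4.68 ± 1.06 against 1.04 ± 0.37 FPKM) and called higher (1.48 ± 0.20). HSPA12B (0.56, adjusted p = 0.0148) and HSPA6 (0.49, adjusted p = 0.178) were not called. The HSP70 genes of the cytosol are close in sequence, so fragments may have been divided between them by the counting.

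Within each library, the make-up of the HSP70 and HSP110 genes was nearly exchanged. HSPA1L, HSPA2 and HSPA4L together held 5.66%, 4.29% and 3.11% of their summed FPKM in cattle-yak and 47.3%, 45.2% and 48.9% in yak. HSPA8 held 51.8%, 50.3% and 52.5% in cattle-yak and 14.2%, 13.6% and 14.4% in yak. HSPA5 held 16.0% ± 0.62 and 22.8% ± 2.59. As these are shares within a library, no scaling between libraries enters them.

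**Figure D2:**
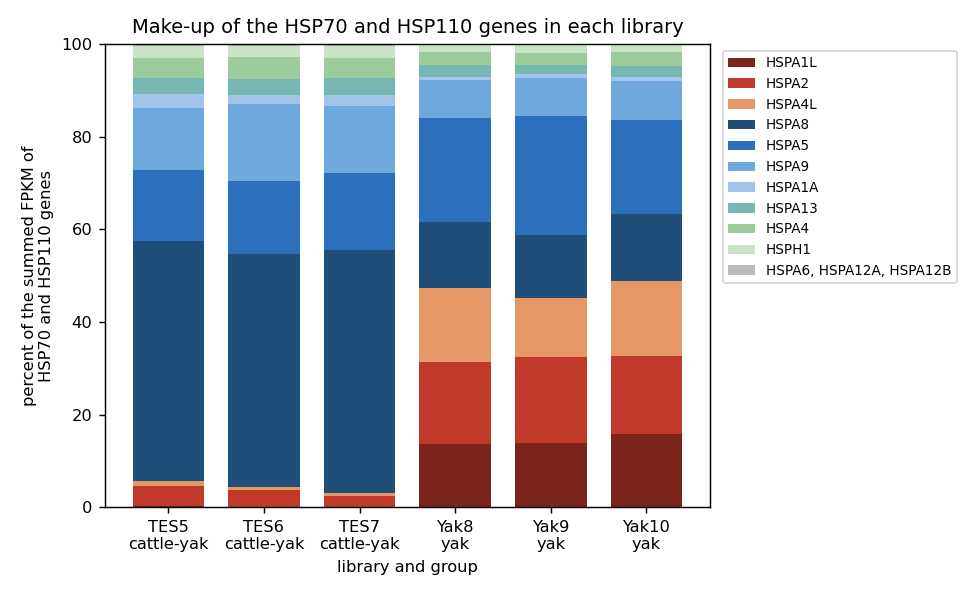
Share of each gene in the summed FPKM of the HSP70 and HSP110 genes, in percent, with 1 stacked bar per library. The red and orange segments of HSPA1L, HSPA2 and HSPA4L fill 45.2 to 48.9% of the yak bars and 3.11 to 5.66% of the cattle-yak bars, where HSPA8 fills 50.3 to 52.5%.

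DNAJB8, DNAJB3 and DNAJB7 had the largest falls of all members on the log2(FPKM + 1) scale. DNAJB8, a DNAJB protein known for holding back aggregation, had 4.56, 3.15 and 0.607 FPKM in cattle-yak and 354, 382 and 486 in yak. Its log2 fold change of −6.92 ± 0.40 (adjusted p = 1.53e-06) was the largest of the 3. DNAJB3, a spermatid DNAJB, had 10.7, 3.90 and 2.81 FPKM against 603, 527 and 748 (−6.69 ± 0.37, adjusted p = 1.21e-06). DNAJB7 had 0.462, 0.978 and 0.188 FPKM against 144, 115 and 181. In fragments this was 17 over the cattle-yak libraries and 5261 over the yak libraries, 273 times more in yak at equal depth (exact 95% interval 170 to 469, for counting error only). DNAJB13, a part of the radial spokes of the sperm tail, had 8.97, 3.67 and 1.90 FPKM against 114, 88.3 and 81.6 (−4.20 ± 0.39, adjusted p = 1.87e-05). DNAJC5G, the germ cell form of the vesicle protein cysteine string protein, had 19.9, 11.1 and 3.94 FPKM against 239.7, 228 and 201 (−4.37 ± 0.44, adjusted p = 2.90e-05). No cattle-yak library reached the lowest yak library in any of these 5 genes.

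In yak, DNAJB3 was the third most abundant of all members, after HSP90B1 and HSP90AA1, and DNAJB8 the eighth, whereas in cattle-yak they ranked 69 and 77 of 90. The 4 DNAJB genes of the list held 62.9% ± 3.83 of the DNAJB FPKM in yak and 3.62% ± 2.09 in cattle-yak. Cattle-yak 1 was the highest of its group in 9 of the 11 genes of the testis list. It was the highest of its group in 34.9% of all genes tested and in 66.1% of all genes called lower, and also in all 6 round and all 8 elongating spermatid markers.

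Outside the testis list, 6 of 74 members tested were lower (8.11%), where 20.8% of all genes were. With median-of-ratios factors 17 of the 74 were lower, where 27.7% of all genes were. The 6 were all DNAJ genes counted as ubiquitous and remained lower with those factors. They are named for that count after their values were seen. DNAJC28, a DNAJ protein of mitochondria, had 16.9, 13.0 and 13.7 FPKM in cattle-yak and 114, 119 and 106 in yak (log2 fold change −2.89 ± 0.12, adjusted p = 3.42e-07). DNAJB4 had 20.98, 21.8 and 24.5 FPKM against 138, 137 and 153 (−2.62 ± 0.10, adjusted p = 2.54e-07). The estimates of both were larger than those of HSPA2, HSF5 and CCT6B of the testis list, a difference that was not tested. DNAJC21, which acts in ribosome assembly, fell by 2.23 on the log2 scale (39.2 ± 7.98 against 186 ± 4.89 FPKM), and DNAJB2 and DNAJC27 fell by 1.61 and 1.55. DNAJB1, the main partner of HSP70 in the cytosol and itself induced by heat, had 111, 54.4 and 80.5 FPKM against 253, 285 and 254 (−1.73 ± 0.23, adjusted p = 1.39e-04). It thus moved opposite to HSPA8 and HSPA1A.

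The DNAJ genes called higher were all of the DNAJC family. DNAJC30, a mitochondrial protein that acts at the ATP synthase, had 61.7, 52.3 and 61.9 FPKM in cattle-yak and 16.6, 14.8 and 16.9 in yak (1.80 ± 0.11, adjusted p = 2.12e-06), and remained higher with median-of-ratios factors (1.20). DNAJC5, the cysteine string protein of most tissues (1.57), DNAJC11 (1.50) and DNAJC13 (1.48) followed, with DNAJC19 of the mitochondrial import motor (1.12) and the lesser DNAJC9 gene (1.07). These 5 were not called with those factors (0.52 to 0.97). The 6 DNAJA genes, partners of HSP70 in the cytosol and, for DNAJA3, in mitochondria, were not called, with a median of 0.46 that turned to −0.13 with median-of-ratios factors. With those factors the most abundant DNAJA1 gene (−1.14) and DNAJA4 (−1.39) were called lower.

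**Figure D3:**
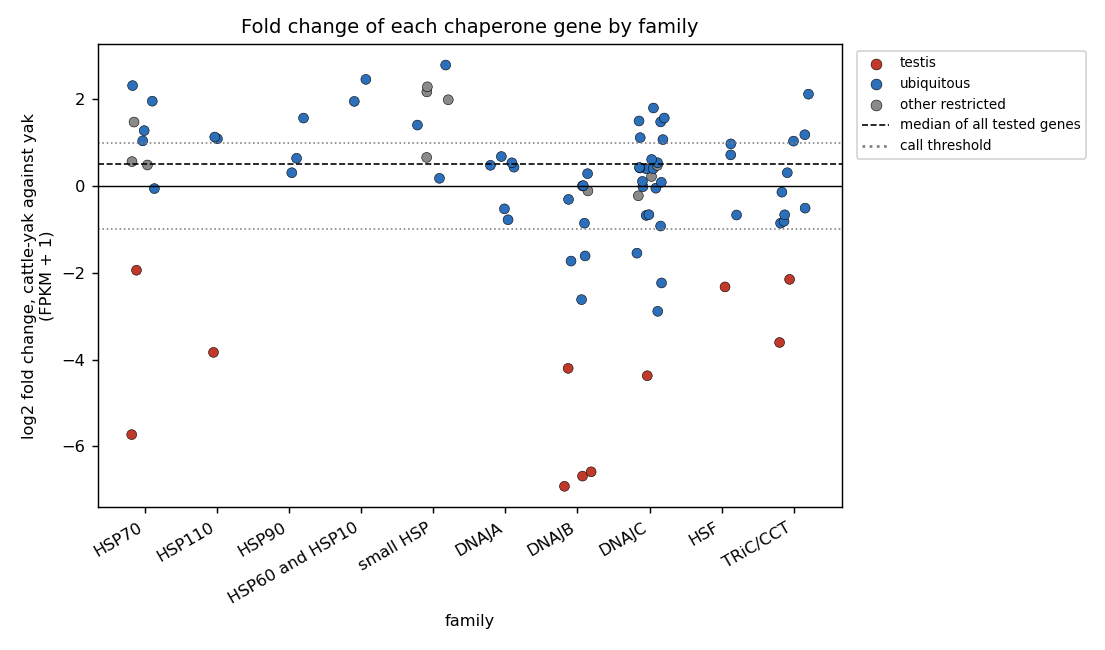
Log2 fold change of each tested member, cattle-yak against yak on log2(FPKM + 1), by family. Points are genes (red, testis list; blue, ubiquitous; grey, other tissues), the dashed line is the median of all genes tested (0.51) and the dotted lines are the thresholds at 1 and −1. All red points lie below −1, and the 5 small heat shock protein genes called lie above 1.

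Of the HSP90 genes, HSP90B1, the form of the endoplasmic reticulum, was the most abundant member in both groups (1503 ± 71.2 FPKM in cattle-yak, 963 ± 37.2 in yak) and was not called (0.64 ± 0.09). HSP90AB1, the constitutive cytosolic form, had 623, 549 and 731 FPKM in cattle-yak and 200.3, 212 and 224 in yak (1.57 ± 0.12, adjusted p = 6.43e-06). With median-of-ratios factors it was just below the threshold (0.95). HSP90AA1, the inducible form that germ cells carry at a high level, had 1144, 758 and 1114 FPKM in cattle-yak and 859, 798 and 744 in yak. Cattle-yak 2 lay among the yak libraries, and the log2 fold change of 0.31 ± 0.17 (adjusted p = 0.116) turned to −0.31 with those factors. The share of HSP90AB1 in the HSP90 FPKM was 20.2% ± 1.54 in cattle-yak and 10.7% ± 0.83 in yak.

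HSPD1, the HSP60 of mitochondria, had 285, 277 and 317 FPKM in cattle-yak and 53.9, 45.3 and 58.8 in yak (2.46 ± 0.12, adjusted p = 6.04e-07). HSPE1, its HSP10 lid, had 366, 319 and 419 FPKM against 92.4, 91.4 and 97.9 (1.95 ± 0.11, adjusted p = 1.55e-06). Both genes stood several-fold apart without overlap (5.56-fold and 3.92-fold by the means) and remained higher with median-of-ratios factors (1.85 and 1.34). Of the 10 mitochondrial chaperone genes, 6 were higher (HSPD1, HSPE1, HSPA9, DNAJC30, DNAJC11 and DNAJC19) and DNAJC28 was lower, with a median of 1.20 beside 0.51 over all genes. Of all genes 33.4% were higher and 20.8% lower. With median-of-ratios factors 3 of the 10 were higher and 2 lower, where 17.7% and 27.7% of all genes were. Of 11 chaperones of the endoplasmic reticulum tested, HSPA13 was higher and none was lower by limma, where 5 more passed the adjusted p alone. With median-of-ratios factors none was higher and DNAJB12 was lower (−1.46), and the median of 0.11 turned to −0.45. Both lists are small, and the difference between them was not tested.

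Of 7 small heat shock protein genes tested 5 were higher and none lower, where 33.4% and 20.8% of all genes were. With median-of-ratios factors 5 were again higher and none lower, where 17.7% and 27.7% of all genes were. HSPB1, the small heat shock protein of most tissues, had 219, 232 and 335 FPKM in cattle-yak and 33.4, 35.3 and 40.5 in yak (2.79 ± 0.17, adjusted p = 1.70e-06), a mean 7.19-fold higher. This was the largest rise of all members on the log2(FPKM + 1) scale, which understates low genes such as HSPB2, 9.18-fold higher by the means. A further gene under the symbol HSPB1 had 8, 8 and 14 fragments in cattle-yak and 0 in each yak library. Its mean of 0.844 FPKM passed the filter only through cattle-yak, so its call gives no support, although it is counted as higher. HSPB2 (8.54 ± 2.63 against 0.929 ± 0.355 FPKM), HSPB8 (13.8 ± 2.98 against 2.28 ± 0.70 FPKM) and HSPB6 (27.3 ± 3.92 against 6.08 ± 0.42 FPKM), known above all from muscle, were higher by 2.29, 2.17 and 1.99 on the log2 scale. The myoid cell markers were higher beside them, with a median of 1.92. The medians were 2.24 for Sertoli, 1.90 for Leydig and 1.78 for spermatogonial markers. The part of any cell type in these rises was not tested. HSPB3 (0.66, adjusted p = 0.0896) and HSPB11 (0.18, adjusted p = 0.319) were not called. Among small heat shock proteins that carry other names, CRYAB, a crystallin of lens and muscle, rose by 2.91 and ODF1, of the outer dense fibres of the sperm tail, fell by 7.65 on the log2 scale.

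TRiC is built of 8 different subunits, and its genes did not move together. CCT6A and CCT8 were higher (log2 fold change 1.18 ± 0.13 and 1.04 ± 0.13), and CCT2, CCT3, CCT5 and CCT7 were between 0.51 and 0.86 lower with adjusted p of 1.45e-04 to 0.0149, within the fold threshold. TCP1 (−0.14, adjusted p = 0.257) and CCT4 (0.31, adjusted p = 0.0393) were not called, and each turned sign under another scaling. CCT8 fell just below the threshold without cattle-yak 1 (0.98), cattle-yak 3 (0.95) or yak 2 (0.98). CCT3 passed the threshold without cattle-yak 1 (−1.003). With median-of-ratios factors CCT6A and CCT8 were not called, and CCT2, CCT3, CCT5 and CCT7 were lower.

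Set against the median of the 8 subunits in its own library, which needs no scaling, each subunit gene was separated between the groups. CCT8 stood at 1.21, 1.29 and 1.49 times that median in cattle-yak and at 0.538, 0.470 and 0.575 times in yak. CCT4 stood at 1.27 ± 0.09 and 0.837 ± 0.029, CCT6A at 0.301 ± 0.040 and 0.106 ± 0.018, and TCP1 at 0.731 ± 0.041 and 0.657 ± 0.016. The other 4 were relatively lower in cattle-yak, with CCT3 at 0.840 ± 0.042 and 1.24 ± 0.03 and CCT7 at 0.811 ± 0.060 and 1.16 ± 0.03. The most abundant subunit gene exceeded the least abundant, CCT6A, 4.68 ± 0.63 times in cattle-yak and 14.6 ± 1.85 times in yak. For comparison, 84.1% of all genes tested did not overlap between the groups in FPKM, as did 66 of the 85 members.

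**Figure D4:**
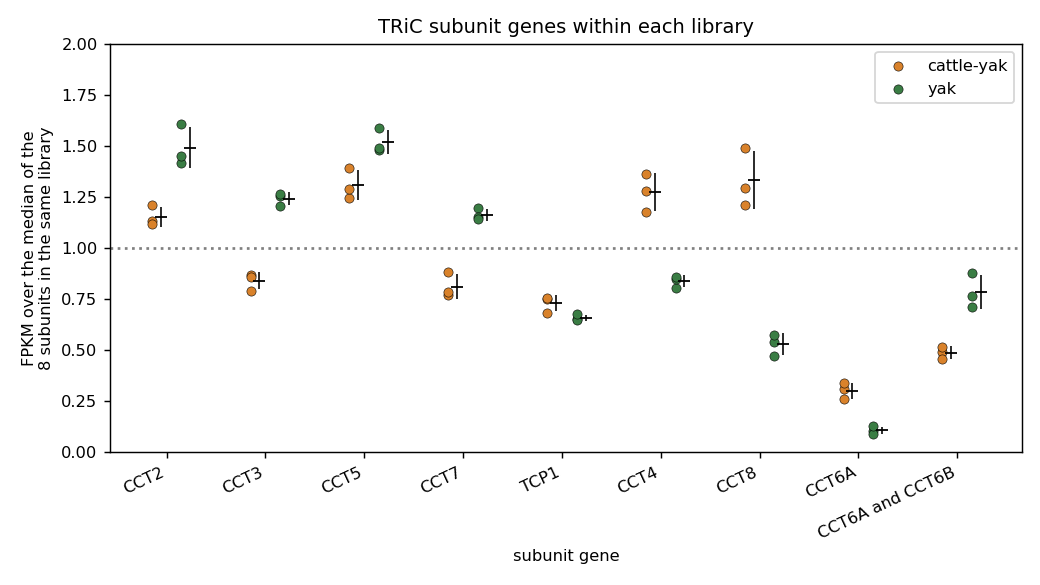
FPKM of each TRiC subunit gene over the median of the 8 subunits in the same library (dotted line at 1.0), with 1 point per library and the mean ± SD beside the points (n = 3). CCT2, CCT3, CCT5 and CCT7 lie lower in cattle-yak and TCP1, CCT4, CCT8 and CCT6A higher, and CCT6A with CCT6B added lies lower in cattle-yak.

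CCT6B, the germ cell form of CCT6A, had 63.8, 28.99 and 41.99 FPKM in cattle-yak and 177, 199.8 and 204 in yak (−2.15 ± 0.24, adjusted p = 5.98e-05). It held 38.2% ± 7.92 of the FPKM of CCT6A and CCT6B in cattle-yak and 86.5% ± 1.44 in yak. With both forms added, this position in the ring stood at 0.487 ± 0.031 times the subunit median in cattle-yak and 0.785 ± 0.084 in yak. CCT8L2, a testis relative of CCT8, had 0, 1 and 1 fragments in cattle-yak and 220, 228 and 289 in yak, where its mean was 11.7 FPKM. At equal depth this is 325 times more in yak, with an exact 95% interval from 89.7 to 2689. CCT8L2 passed the filter only through the yak libraries, so its call gives no support, although it is counted as lower.

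Of the 4 heat shock factors 1 was called. HSF5, a factor of meiotic germ cells, had 42.2, 28.8 and 24.5 FPKM in cattle-yak and 174, 185 and 126 in yak (−2.33 ± 0.22, adjusted p = 1.80e-05). HSF1, the factor of the heat shock response, had 86.2 ± 4.40 against 138 ± 12.1 FPKM (−0.67 ± 0.10, adjusted p = 2.99e-04), and HSF2 had 62.3 ± 7.83 against 37.3 ± 2.76 (0.72 ± 0.12, adjusted p = 5.94e-04). The groups did not overlap in either, but neither passed the fold threshold. With median-of-ratios factors HSF1 was called lower (−1.28) and HSF2 was at 0.11. HSF4, a factor of the lens, was at 2.74 ± 0.58 and 0.894 ± 0.106 FPKM, and its log2 fold change of 0.97 ± 0.17 passed the threshold without cattle-yak 1 (1.10) or yak 1 (1.02).

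Of a list of genes taken as induced by heat, 13 genes were tested, with a median of 1.13. Of them 7 were higher and 1, DNAJB1, lower, where 33.4% and 20.8% of all genes were. The list holds HSPA8, named above as constitutive, and counts DNAJA1 and HSPB1 once for each of their genes. The lesser HSPB1 gene among the 7 passed the filter only through cattle-yak. With median-of-ratios factors 6 of the 13 were higher and 3 lower, where 17.7% and 27.7% of all genes were, with a median of 0.52. On the FPKM scale HSPA1A, HSPA8, HSPB1, HSPD1, HSPE1 and HSPH1 were among those higher, and HSP90AA1 and DNAJA4 were not called. BAG3, a partner of HSP70 and HSPB8 that is induced with them and is no member, had 18.5 ± 2.65 against 7.79 ± 0.52 FPKM (1.14). The summed level of the tested and untested members of this list was 3177 to 4349 FPKM in cattle-yak and 2082 to 2152 in yak, without scaling between libraries.

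Related genes were then compared within each library, as the log2 difference between a gene and its relative, for 9 pairs. The germ cell form stood lower against its relative in every cattle-yak library than in any yak library, in each pair that held one. HSPA1L was at 0.0045, 0.0026 and 0.0024 times the FPKM of HSPA8 in cattle-yak and at 0.966, 1.02 and 1.10 times in yak. HSPA4L was at 0.171 ± 0.059 times HSPA4 in cattle-yak and 5.36 ± 0.57 times in yak, and DNAJC5G at 0.256 ± 0.201 times DNAJC5 and 14.5 ± 1.32 times. In these last pairs the more abundant gene was thus the common form in cattle-yak and the testis form in yak, and the same held for CCT6B and CCT6A (0.636 ± 0.225 and 6.45 ± 0.84 times).

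Between the groups the log2 difference changed by −4.26 for HSPA2 against HSPA8, by −2.47 for DNAJB13 against DNAJB1 and by −1.66 for HSF5 against HSF1. Among pairs without a gene of the testis list, HSP90AA1 was at 1.58 ± 0.23 times HSP90AB1 in cattle-yak and 3.79 ± 0.48 times in yak, and HSF2 at 0.724 ± 0.108 and 0.273 ± 0.038 times HSF1. No pair overlapped between the groups, where 84.1% of all genes tested did not overlap in FPKM. No such share was computed for ratios of other genes. The two-sided exact permutation test over animals gave p = 0.1 for each of the 9 (adjusted p = 0.1), which is the smallest that 3 against 3 animals allow.

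**Figure D5:**
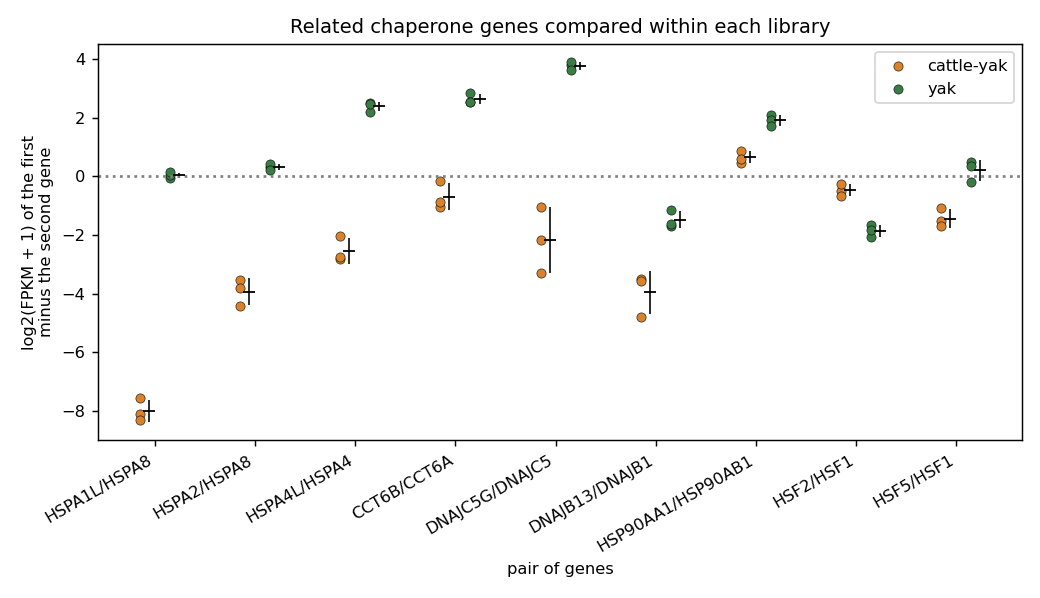
Log2(FPKM + 1) of the first minus that of the second gene of each pair, with 1 point per library and the mean ± SD beside the points (n = 3). Cattle-yak lie below yak in 8 of the 9 pairs, from −8.05 (HSPA1L/HSPA8) to −1.26 (HSP90AA1/HSP90AB1), and above yak in HSF2/HSF1 (1.39).

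Among genes that work with the chaperones and are no members, 42 co-chaperone genes held 9 higher and 10 lower, with a median of −0.11, where 33.4% and 20.8% of all genes were higher and lower. With median-of-ratios factors 2 were higher and 14 lower, where 17.7% and 27.7% of all genes were, with a median of −0.71. BAG5, a nucleotide exchange factor of HSP70, had 23.05, 20.6 and 16.8 FPKM in cattle-yak and 339.6, 313 and 357 in yak (−4.00, adjusted p = 1.19e-07). CLPB, a disaggregase of mitochondria, and BAG4 were lower by 3.47 and 2.82. FKBP5, an HSP90 partner of steroid receptors, had 101.7 ± 19.0 against 24.6 ± 3.06 FPKM (1.99, adjusted p = 6.38e-06), and UNC45A and RPAP3 were higher by 1.62 and 1.53. Of 9 prefoldin and phosducin-like genes, which bring clients to TRiC, PDCL3 (1.97) and VBP1 (1.13) were higher and PDCL2 (−4.56), the germ cell form, and 1 PFDN4 gene (−1.25) were lower, and with median-of-ratios factors 1 was higher and 3 lower.

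Of the 8 symbols that stood on more than 1 gene (17 members), DNAJA1 stood on 3 and DNAJB1, DNAJC8, DNAJC9, CCT5, CCT6A, CCT8 and HSPB1 on 2 each. Fragments may be shared between such copies, so the lesser copies are uncertain. The most abundant DNAJA1 gene was at 291 ± 40.2 against 417 ± 22.0 FPKM (−0.53 ± 0.12) and the next at 92.5 ± 16.6 against 56.8 ± 4.27 (0.68 ± 0.14), opposite in sign and neither called on the FPKM scale, while with median-of-ratios factors the former was called lower (−1.14) and the latter was at 0.07. The lesser CCT8 gene was at 6.70 ± 1.19 against 0.775 ± 0.293 FPKM (2.12 ± 0.19), and the lesser DNAJC9 gene at 3.29 ± 0.42 against 1.07 ± 0.43, beside a main gene that did not pass the test (−0.05, adjusted p = 0.817). The lesser DNAJC9 gene fell below the fold threshold without cattle-yak 3 (0.995) or yak 2 (0.91). The second genes of DNAJB1, DNAJC8, CCT5 and CCT6A, and HSPB7, lay below the filter, at 0 to 1.50 FPKM.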

How the data were processed

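Total testis RNA of 3 cattle-yak and 3 yak was sequenced from TruSeq Stranded mRNA libraries on an Illumina HiSeq instrument. As described in the study's methods, the authors trimmed reads with Trimmomatic, mapped both groups with HISAT2 to the yak genome LU_Bosgru_v3.0 and calculated FPKM with Cufflinks. The deposited FPKM values are relative to gene length and library depth, with no scaling between libraries. As cattle-yak reads were mapped to the yak genome, alleles of cattle origin may map less often, which was not tested. Depth was recovered from the steps of the FPKM values, as 11175100 to 13136129 fragments on genes per library, and whole fragments for 17973 genes. A single fragment on 1 kb was worth 0.0761 to 0.0895 FPKM. Intervals of fragment ratios cover counting error only.

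The 15042 genes that averaged 0.5 FPKM or more were tested with limma 3.58.1 in R 4.3.3 on log2(FPKM + 1), two-sided, with a variance trend and Benjamini-Hochberg adjustment over all of them, and called where the adjusted p was below 0.05 and the log2 value exceeded 1 in size. This scale understates changes of low genes. The script was tested on simulated data. Single values were compared with exact permutation tests over animals. Python 3.11.15 with numpy 2.4.6, pandas 2.3.3, scipy 1.17.1 and matplotlib 3.10.9 was used otherwise.

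Members were matched by symbol, written here in upper case, with each gene of the table kept apart. HSPB9, DNAJC5B and CCT8L1 of the testis list were not matched and are not analysed here. The members, lists and pairs were chosen with earlier results of these data known. Named are the testis list, the HSP70, HSP110, HSP90, HSP60, HSP10, TRiC and HSF genes, the 5 largest called changes in each direction among the HSPB and DNAJ genes, repeated symbols, and the 3 largest called changes in each direction of the co-chaperone and prefoldin lists. DNAJA4, DNAJB2, DNAJB4, DNAJB12, DNAJC5, DNAJC11, DNAJC13, DNAJC19, DNAJC21, DNAJC27, DNAJC28, the genes of lists without such a rule (CRYAB, ODF1, BAG3, SPACA4), and the untested or uncalled HSPB genes were named after their values were seen. Alternatives were another pseudocount, other filters, median-of-ratios and quantile scaling, limma voom on the recovered fragments, no fold threshold, and the omission of each animal. GO and KEGG terms, genome positions and sequences were not used here.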

Additional observations from a re-analysis of the deposited data

How the results depend on the processing

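With median-of-ratios size factors 17.7% of all genes were higher and 27.7% lower. Of the members 12 were then higher and 28 lower, and of those outside the testis list 12 were higher and 17 lower. Without a fold threshold these counts were 38 and 29, and 38 and 18, where 52.6% of all genes were higher and 29.2% lower. Leaving out each animal in turn gave 21 to 25 members higher, 17 to 19 lower, and 6 to 8 lower outside the testis list, which itself was lower in 11 of 11. The other alternatives kept every count within 1.5 times, and limma voom on the recovered fragments gave 25 higher and 17 lower. Of 64 named genes tested, 35 had the same call and direction in all alternatives. The sign turned in CCT4 (−0.31), HSP90AA1 (−0.31), the main DNAJC8 gene (−0.21) and the least abundant DNAJA1 gene (−0.12) with median-of-ratios factors, and in HSPA5 (0.084) and TCP1 (0.091) with quantile normalisation. It also turned on leaving out an animal in the main DNAJC9 gene (−0.25 to 0.086 over the 6 omissions) and HSPA5 (−0.17 to 0.051). None of these 7 genes was called in any of those fits, and the cause was not tested. The 9 pairs kept their direction throughout, although their p cannot go below 0.1. As no pair overlapped between the groups, omitting an animal could not turn its direction. A factor between libraries nearly cancels within a library, so the omissions and the scaling give the pairs no support. No paired analysis was possible because the labels tie no cattle-yak to any yak, and the replicate numbers only follow the order of the samples. The counts of called ubiquitous genes rest on the scaling chosen, and 3 animals a group limit the precision.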

Other observations

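The cattle-yak libraries differed among themselves in the chaperone genes in a way seen after their values were known. Cattle-yak 2 was the lowest of its group in 43 of the 63 ubiquitous members tested, 68.3% of them, where it was the lowest in 28.0% of all genes tested and in 38.4% of genes with a mean of at least 100 FPKM. It was the lowest in all 8 TRiC subunit genes, among them CCT5 (245 FPKM against 385 and 300.0 in the other cattle-yak) and CCT2 (219.9 against 313 and 282). HSPA1A, HSPH1, DNAJB1 and HSP90AA1 were also lowest there, with HSPA1A at 38.5 FPKM against 76.4 and 70.04. Cattle-yak 3 was the highest of its group in 17 of the 20 ubiquitous members called higher, HSPA8 and HSPD1 among them, where it was the highest in 34.1% of all genes called higher. The yak libraries were closer together, with a summed level of the ubiquitous members of 7883 to 8136 FPKM, against 9114 to 11215 in cattle-yak.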
